A study of Mus musculus with 12 samples.

Results

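The effect of diabetes on isolated glomeruli was read from 6 vehicle-treated mice of a series of 12, chosen by the condition in their labels: 3 diabetic mice (DM_DMSO) and 3 nondiabetic mice (Con_DMSO). All 14096 genes listed in the deposited files were compared. All mice were C57BL/6J males lacking endothelial nitric oxide synthase (eNOS−/−), so the nondiabetic mice carried that deletion too. At 8 weeks of age the diabetic mice were injected with streptozotocin (STZ, a toxin of insulin-producing cells), 50 mg/kg daily for 5 days, and the nondiabetic mice with citrate buffer. From 10 weeks after induction both groups were gavaged with vehicle, 5% DMSO, for 8 weeks, so the glomeruli were taken 18 weeks after induction. The other 6 mice, diabetic or not, received ATG (arctigenin, a plant lignan) at 40 mg/kg per day in the same vehicle, and their own diabetic and nondiabetic mice serve here as a second comparison that shares no mouse with the first.

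The glomerulus is the filtering tuft of the kidney. Podocytes wrap a bed of fenestrated capillaries, mesangial cells hold the capillary loops together, and parietal cells line the surrounding capsule. Tubule segments downstream reabsorb glucose, salt and protein, and fragments of them are carried along when glomeruli are isolated. In diabetic kidney disease the glomerulus enlarges, its basement membrane thickens and podocytes are damaged, and mice without eNOS develop a more severe form than wild-type mice.

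Values are log2 reads per gene after 1 factor per library and without division by gene length, so they compare a gene between mice but not genes with one another. Between 25.8 and 29.8 M (mega) reads per vehicle-treated mouse fell on the listed genes. A gene was called when limma's adjusted p was under 0.05 over all listed genes, and differences are diabetic minus nondiabetic log2 values with their standard error. The first part of the library labels differs between diabetic and nondiabetic mice, so a batch named by it cannot be told apart from diabetes. Nondiabetic mouse 1 has such a label part of its own. Of the defining podocyte genes, Nphs1 was at 15.81 or more and Wt1 at 13.52 or more in all 6 libraries. Tubule, erythroid and macrophage markers were detected as well, and some of each were called between the groups.

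The proximal tubule list had the lowest median of the 60 lists. Of the 48 listed proximal tubule markers 37 were lower in diabetic mice (77.1%) and 1 was higher, against 8.63% of all genes lower and 10.2% higher, and the list median was −1.49 on the log2 scale against 0.01 over all genes. Averaged over the list, the log2 value was 11.64, 11.37 and 10.82 in the nondiabetic mice and 10.04, 10.29 and 9.18 in the diabetic mice. The groups did not overlap, and diabetic mouse 3 was lowest. Lrp2, which encodes the endocytic receptor megalin, read 13.14, 12.74 and 12.21 in nondiabetic mice and 11.37, 11.33 and 10.30 in diabetic mice (difference −1.70 ± 0.35, limma adjusted p = 0.0107). The other defining markers also fell: Slc34a1, the main phosphate transporter (−1.76), Slc5a2, the glucose transporter SGLT2 (−1.45), and Miox, which opens the inositol ring (−1.95). In the loop of Henle and distal convoluted tubule, 14 of 27 markers were lower and none higher (median −1.03), among them Umod, encoding uromodulin (−1.29, limma adjusted p = 0.0416), and the thiazide-sensitive transporter Slc12a3 (−1.50, limma adjusted p = 0.0233). The loop transporter Slc12a1 did not pass (−0.72, limma adjusted p = 0.132). In the collecting duct 6 of 24 were lower (median −0.78), with Slc26a4, the chloride-bicarbonate exchanger pendrin, at −1.42, whereas Aqp2, the water channel, overlapped between groups (0.45, limma adjusted p = 0.453). Leaving out 1 mouse moved these counts: 15 proximal tubule genes were lower without nondiabetic mouse 2 and 17 without nondiabetic mouse 1, the loop and distal count was 3 without nondiabetic mouse 2, 5 without diabetic mouse 1, 8 without nondiabetic mouse 1 or 3 and 21 without diabetic mouse 2, and the collecting duct count was 3 without nondiabetic mouse 2 or diabetic mouse 1 and 17 without diabetic mouse 2. In bulk glomeruli, fewer tubule cells and less of these RNAs per cell cannot be told apart.

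Because tubule markers move with diabetes, each count was also taken with the mean of a tubule list as a covariate. Over all genes 2659 (18.9%) were called without a covariate, 1442 higher (10.2%) and 1217 lower (8.63%). With the 48 proximal tubule markers as covariate 12 were called higher and 1 lower, and with the genes of all 3 tubule lists, a choice made after seeing the data, 521 and 434. The median standard error over genes was 0.12 without a covariate, 0.19 with the first and 0.17 with the second. Of the genes called higher, all 1442 stayed positive with the proximal tubule covariate and their median difference went from 0.48 to 0.46, although single genes moved more, such as Adam12 from 0.85 to 0.39, and 1440 stayed positive with the 3 lists (median 0.42). Members called with the proximal tubule covariate were found in the G2/M (2), p53 (5), apoptosis (2), immediate early (1) and NRF2 (1) lists and in no other list. Of the 1217 genes called lower, 1087 stayed negative with the proximal tubule covariate and their median went from −0.74 to −0.38, and with the 3 lists 1088 and −0.30. Leaving out 1 mouse left 475 (without nondiabetic mouse 2) to 1286 (without diabetic mouse 2) genes higher and 326 (without nondiabetic mouse 2) to 1633 (without diabetic mouse 2) lower.

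Among the glomerular cell types, some endothelial markers and no podocyte marker were called. Of 40 endothelial genes 17 were higher and none lower (median 0.38). Gpihbp1, which anchors lipoprotein lipase on capillaries, read 11.37, 11.27 and 11.34 in nondiabetic mice and 12.65, 12.47 and 12.33 in diabetic mice (1.16 ± 0.19, limma adjusted p = 0.00512). Every diabetic mouse lay above every nondiabetic one. The junction protein genes Cdh5 (0.64) and Esam (0.76) and the sialomucin Emcn (0.68) rose too, whereas Pecam1 (0.49, limma adjusted p = 0.0582), Kdr (0.30, 0.196), which is the main VEGF receptor, and Ehd3 (0.12, 0.676) did not pass. The endothelial count was 4 without nondiabetic mouse 2, 6 without diabetic mouse 1, 8 without nondiabetic mouse 1 and 11 without nondiabetic mouse 3 or diabetic mouse 3. It was 0 with the proximal tubule covariate and 1 with the 3 tubule lists. None of the 39 podocyte genes was called in either direction (median 0.15), and 3 were called higher with only the vehicle-treated mice in the fit. Nphs1, encoding the slit diaphragm protein nephrin, read 15.83, 15.91 and 15.92 in nondiabetic mice and 16.06, 15.81 and 16.52 in diabetic mice (0.24 ± 0.27, limma adjusted p = 0.555), and the groups overlapped. Diabetic mouse 3, with the highest podocyte mean (14.20 against 13.61 to 13.74 in nondiabetic mice), was the mouse with the lowest proximal tubule mean. With the 3 tubule lists as covariate the podocyte median was −0.62 and 6 podocyte genes were lower.

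**Figure D1:**
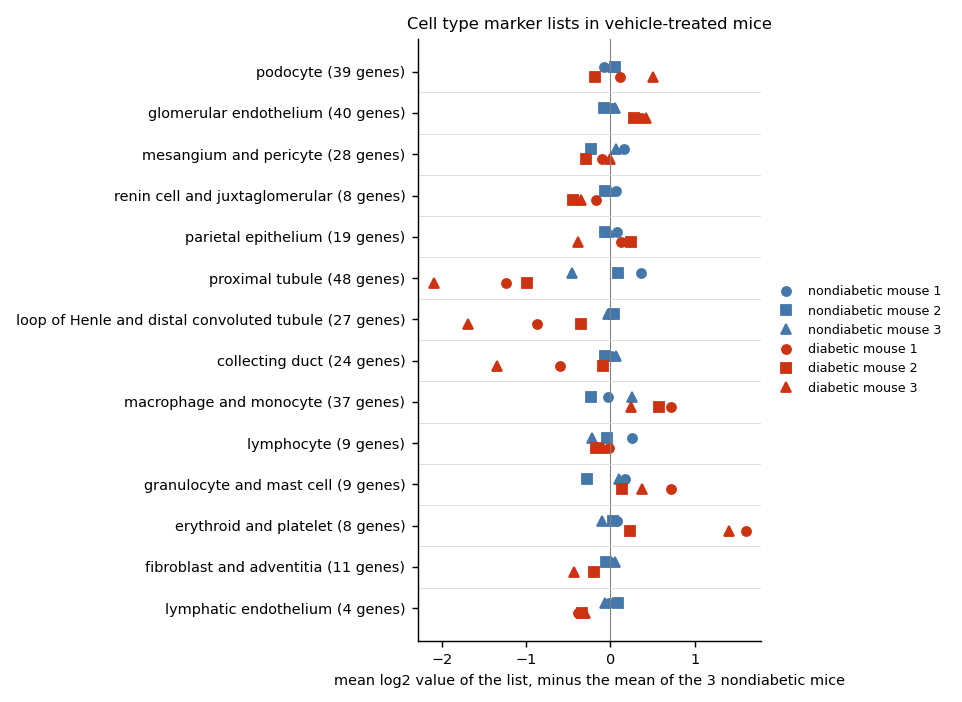
Mean log2 value of each cell type marker list in each vehicle-treated mouse, minus the mean of the 3 nondiabetic mice (blue, nondiabetic, red, diabetic, and 1 symbol per mouse). The 3 diabetic mice lie to the left for the proximal tubule list and to the right for the endothelial list, with podocyte values on both sides of the nondiabetic ones and mesangial values overlapping them.

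Mesangial and juxtaglomerular genes moved in single members. Of 28 mesangial and pericyte genes 2 were higher and 2 lower (median −0.19), 7.14% in each direction and below the shares of all genes. Pdgfra, a PDGF receptor of mesenchymal cells, read 10.60, 10.61 and 10.36 in nondiabetic mice and 9.49, 9.14 and 9.93 in diabetic mice (−1.0 ± 0.17, limma adjusted p = 0.00512), so that no values overlapped. The secreted Wnt inhibitor Sfrp2 fell by 0.77, while the adhesion molecule Mcam (0.68) and the protease inhibitor Serpine2 (0.64) rose. The defining mesangial genes Pdgfrb, Itga8, Gata3 and Des gave −0.16 to −0.30 and did not pass. The mesangial count higher was 0 without nondiabetic mouse 2 or diabetic mouse 1, and the count lower was 1 to 3 leaving out 1 mouse. Of 8 renin cell genes 3 were lower. Ren1, encoding renin, read 11.33, 11.72 and 11.78 against 10.74, 10.13 and 11.11 (−0.95, limma adjusted p = 0.0387), and Nos1, the neuronal nitric oxide synthase of the macula densa, fell by 0.76. That count was 0 without nondiabetic mouse 2 and 1 without nondiabetic mouse 1 or diabetic mouse 1. In parietal epithelium the shares called, 10.5% of 19 genes in each direction, were close to those of all genes: 2 rose, the scaffold protein gene Akap12 (1.20) and the hyaluronan receptor Cd44 (0.91), and 2 fell, Cdh6 (−0.62), which encodes a cadherin, and Fhit (−0.68). The parietal count lower was 5 without diabetic mouse 2 and 1 without diabetic mouse 3 or any nondiabetic mouse. The small lists of fibroblasts (1 of 11 higher, 2 lower) and lymphocytes (1 of 9 in each direction) were mixed. Of 4 lymphatic endothelial genes 2 were lower and none higher, and 1 was lower without any mouse other than diabetic mouse 2.

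Some blood cell markers were called higher. Of 8 erythroid and platelet genes 4 were higher (median 1.24), and the list mean was 6.42, 6.37 and 6.24 in nondiabetic mice and 7.95, 6.57 and 7.75 in diabetic mice. Hba-a1, encoding alpha globin, gave 4.99, 5.29 and 4.75 against 7.36, 5.38 and 7.25, so that diabetic mouse 2 lay close to the nondiabetic mice, and its reads may be shared with its copy Hba-a2. The erythroid and platelet count was 6 without diabetic mouse 2, and 1 without any other mouse and with vehicle-treated mice only. Of 37 macrophage and monocyte genes 9 were higher (median 0.60), led by the lysozymes Lyz1 (1.45) and Lyz2 (1.39), near-identical copies whose reads cannot be fully told apart. The defining macrophage genes did not pass: Adgre1 0.22, Csf1r 0.21, C1qa 0.12 and Cd68 0.81 (limma adjusted p = 0.0515). No macrophage gene was called without nondiabetic mouse 2 or without diabetic mouse 1, and 3 were without nondiabetic mouse 1. In the granulocyte and mast cell list, 1 of 9 genes was higher, close to the 10.2% of all genes, and the neutrophil genes S100a8 (0.06) and S100a9 (0.19) did not pass. That gene was Hdc, which makes histamine from histidine, with 8.22, 7.68 and 8.07 in nondiabetic mice and 10.32, 9.74 and 10.46 in diabetic mice (2.18 ± 0.22, limma adjusted p = 0.00104, 4.53-fold). The part of these markers in the changes described next was not tested.

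Of the 60 lists, mitosis had the largest share of members called higher. Progression through G2 and mitosis is driven by cyclin B bound to the kinase CDK1, and many of its genes share promoter elements at which the DREAM and MuvB complexes act. Of 72 listed G2/M and mitosis genes 55 were higher in diabetic mice (76.4%) and none lower, and 63 lay above the nondiabetic mice without overlap, against 23% of all genes above and 18.7% below. Their median difference was 0.82. Cdk1 read 6.78, 6.64 and 6.43 in nondiabetic mice and 8.61, 8.67 and 8.73 in diabetic mice, a 4.15-fold difference with the lowest p of any gene (limma adjusted p = 5.09e-05). Ccnb1, encoding cyclin B1, read 5.89, 5.82 and 5.84 against 7.49, 7.65 and 7.24 (1.61 ± 0.16, limma adjusted p = 0.0011). Top2a, the topoisomerase that untangles chromosomes, read 8.40, 7.78 and 8.05 against 9.35, 9.74 and 9.44 (1.43 ± 0.20). Mki67, whose product coats mitotic chromosomes, read 8.01, 7.27 and 8.25 against 9.48, 9.77 and 9.48 (1.73 ± 0.22). For each of these genes the 3 diabetic mice lay above all nondiabetic mice. The spindle protein gene Ckap2 (2.33) and Ncaph (1.13), a condensin subunit, rose too. Levels were low, with 54 reads of Ccnb1 in nondiabetic mouse 1 and 156 in diabetic mouse 1. Leaving out any 1 mouse left 43 to 53 of the 72 higher, the 3 tubule lists as covariate left 31 and the proximal tubule covariate 2, with medians of 0.88 and 0.85. Those 2 were Cdk1 (2.07) and Ccnb1 (1.99).

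Promoter sequences of the defining mitotic genes are shown because this list moved together. They run from 120 bases before to 30 bases after the start of RefSeq transcripts on GRCm38.p6, 5′ to 3′, with capitals marking the cell cycle genes homology region (CHR, TTTGAA or its variant TTCGAA) and the CCAAT box, on either strand.
Cdk1, chr10:69352883-69353032, minus strand: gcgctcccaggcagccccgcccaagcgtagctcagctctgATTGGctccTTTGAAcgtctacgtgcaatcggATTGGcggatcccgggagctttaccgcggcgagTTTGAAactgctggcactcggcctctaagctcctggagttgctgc
Ccnb1, chr13:100786457-100786606, minus strand: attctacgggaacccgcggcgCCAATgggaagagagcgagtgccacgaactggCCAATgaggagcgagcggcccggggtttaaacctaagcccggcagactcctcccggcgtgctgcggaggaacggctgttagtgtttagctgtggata
Top2a, chr11:99024160-99024309, minus strand: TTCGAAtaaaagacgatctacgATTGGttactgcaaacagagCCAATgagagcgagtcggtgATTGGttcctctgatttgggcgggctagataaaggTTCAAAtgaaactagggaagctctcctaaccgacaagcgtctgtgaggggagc
Mki67, chr7:135716350-135716499, minus strand: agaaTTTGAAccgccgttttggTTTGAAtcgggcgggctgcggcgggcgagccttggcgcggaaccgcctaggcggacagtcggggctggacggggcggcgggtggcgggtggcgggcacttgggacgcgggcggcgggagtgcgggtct
Cdk1 held both elements, Ccnb1 the CCAAT box only, Mki67 TTTGAA only and Top2a both, which includes TTCGAA at the first base shown. In the longer window from 250 bases before to 50 after the start, TTTGAA was present for 67.2% of the 58 G2/M genes with a promoter sequence and 75.6% of the 45 called higher, against 14.5% of all 11151 listed genes with one. CCAAT was present for 72.4% and 73.3%, against 42.5%. CHR in either form and CCAAT were both present for 63.8% and 66.7%, against 6.81%. These shares describe letters in a window, and a listed gene may have several windows.

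DNA replication and G1 genes followed with smaller differences. Of 66 S phase genes 35 were higher and 1 lower (median 0.39). Mcm5, a subunit of the replicative helicase, read 8.33, 8.48 and 8.45 in nondiabetic mice and 9.21, 9.28 and 9.11 in diabetic mice (0.78 ± 0.074, limma adjusted p = 0.000876). Pcna, the sliding clamp of the polymerase, gave 11.14, 11.10 and 11.14 against 11.56, 11.60 and 11.61 (0.46 ± 0.063), and the origin factor Cdc45 (0.91) and the ribonucleotide reductase subunit Rrm2 (0.90) also rose. The count was 19 without nondiabetic mouse 2, 0 with the proximal tubule covariate and 12 with the 3 tubule lists. An E2F motif in either of the forms searched on both strands, TTTCCCGC or TTTGGCGC, was in 34% of the 53 S phase promoters and 32.1% of the 28 of genes called higher, against 3.19% of all. Among 22 G1 genes and cell cycle inhibitors 6 were higher and 1 lower: the cyclins Ccnd1 (0.56) and Ccnd3 (0.35) and the inhibitors Cdkn1a (1.74) and Cdkn2c (0.56) rose, and the retinoblastoma relative Rbl2 fell by 0.43. The histone variant gene H2afz was 0.50 higher (limma adjusted p = 0.0018), while of 12 histone genes in all 1 was higher and 1 lower.

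Of 44 listed targets of p53, the transcription factor that answers DNA damage and other stress, 20 were higher and none lower (45.5%, median 0.32), while 11 had a negative difference. Eda2r, a receptor gene on the X chromosome, read 6.82, 6.53 and 6.99 in nondiabetic mice and 8.73, 9.12 and 8.96 in diabetic mice (2.15 ± 0.15, limma adjusted p = 0.000119). Phlda3, an inhibitor of Akt, read 9.78, 9.66 and 9.91 against 11.30, 11.77 and 11.33 (1.69 ± 0.13). Cdkn1a, encoding the cyclin kinase inhibitor p21, read 11.70, 10.82 and 11.16 against 12.64, 13.44 and 12.82, a 3.33-fold difference (limma adjusted p = 0.00375). Bax, which opens the outer mitochondrial membrane in apoptosis, read 10.58, 10.48 and 10.55 against 11.52, 11.66 and 11.44 (1.01 ± 0.089, limma adjusted p = 0.000735). None of these genes overlapped between the groups. Mdm2, the ligase that degrades p53, rose by 0.49 and the death receptor Tnfrsf10b by 0.70. Psrc1 (2.13), of the mitotic spindle, rose as well, and Ckap2 is in both this list and the mitotic one. The count of 20 was 13 to 18 leaving out any 1 mouse, 18 with the 3 tubule lists as covariate and 5 with the proximal tubule list, among them Eda2r (2.02), Phlda3 (1.77) and Bax (1.07). In the broader apoptosis list 13 of 37 genes were higher, including Bak1 (0.54), and 2 were lower, the BH3-only genes Bmf (−0.80) and Bcl2l11 (−0.35). That count was 4 without nondiabetic mouse 2, 7 without diabetic mouse 1 and 2 with the proximal tubule covariate.

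**Figure D2:**
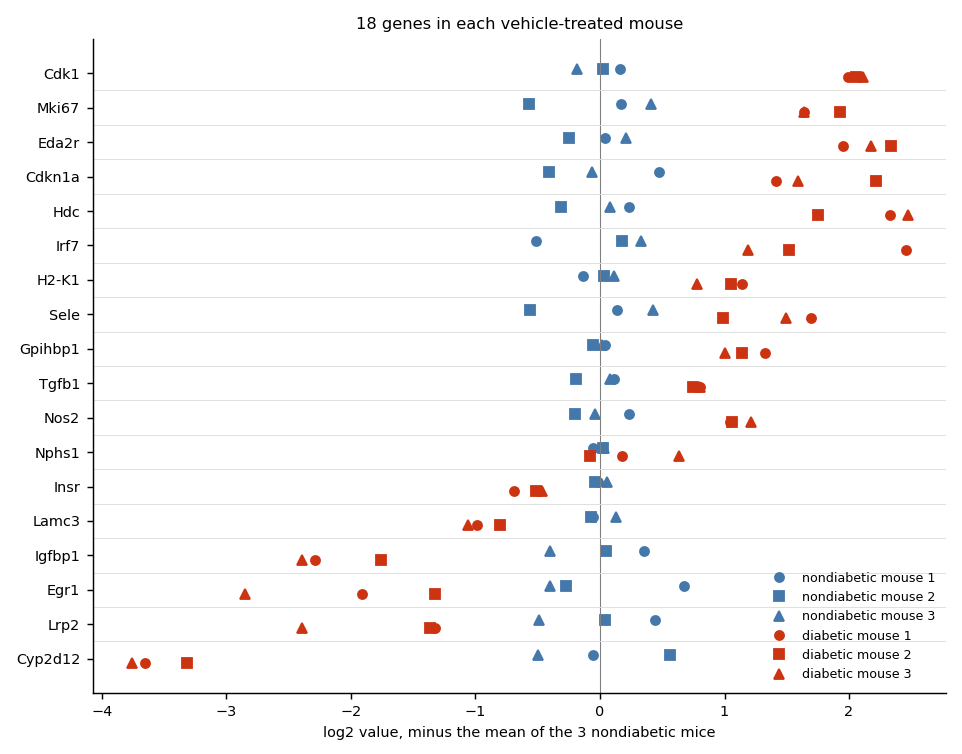
Log2 values of 18 named genes in each vehicle-treated mouse, minus the mean of the 3 nondiabetic mice (blue, nondiabetic, red, diabetic). Cdk1 values of the 3 diabetic mice lie within 8.61 to 8.73, while those of Irf7 spread from 10.75 to 12.02, and Nphs1 is the gene whose groups overlap.

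Interferon-stimulated genes, the antiviral and antigen-processing response that follows interferon signalling, were higher in diabetic mice in 25 of 52 cases and lower in none (48.1%, median 0.59). Irf7, the regulator that amplifies interferon output, read 9.05, 9.74 and 9.89 in nondiabetic mice and 12.02, 11.08 and 10.75 in diabetic mice (1.72 ± 0.34, limma adjusted p = 0.00932). Isg15, a ubiquitin-like modifier, read 8.45, 8.98 and 9.01 against 10.31, 9.84 and 9.67 (1.13 ± 0.22), and Ifit1, which binds viral RNA, 8.59, 9.57 and 9.42 against 11, 10.15 and 10.13 (1.24 ± 0.28). In all 3 genes nondiabetic mouse 1 was lowest and diabetic mouse 1 highest, and the groups did not overlap. Ifi27l2a (1.65), Ifi47 (1.08), Lgals3bp (1.01) and Ifitm3 (0.94) rose as well. The count was 10 without diabetic mouse 1, 11 without nondiabetic mouse 1 and 15 without nondiabetic mouse 2, and 0 with the proximal tubule covariate and 1 with the 3 tubule lists (medians 0.33 each).

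The interferon promoters below are shown for the interferon-stimulated response element (ISRE), written as GAAA, any 2 bases and GAAA, on either strand and in capitals, with the same span and source as the mitotic ones.
Isg15, chr4:156200789-156200938, minus strand: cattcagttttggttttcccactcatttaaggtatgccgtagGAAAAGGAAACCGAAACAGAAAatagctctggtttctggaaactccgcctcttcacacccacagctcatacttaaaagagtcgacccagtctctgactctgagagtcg
Ifit1, chr19:34640769-34640918, plus strand: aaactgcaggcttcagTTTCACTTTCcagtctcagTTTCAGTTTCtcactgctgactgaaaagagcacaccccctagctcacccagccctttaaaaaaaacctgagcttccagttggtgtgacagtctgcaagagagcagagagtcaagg
Irf7, chr7:141266395-141266544, minus strand: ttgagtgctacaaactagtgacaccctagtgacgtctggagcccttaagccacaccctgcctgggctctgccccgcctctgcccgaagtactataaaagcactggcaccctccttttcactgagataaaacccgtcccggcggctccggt
Isg15 and Ifit1 held the element and the stretch of Irf7 held none. In the longer window it was present for 59% of the 39 interferon-stimulated genes with a promoter sequence and 65% of the 20 called higher, against 3.69% of all listed genes with one.

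Antigen presentation genes were called higher as well. Of 26 listed members all 26 had a positive difference and 16 were called higher (median 0.54). H2-K1, a classical class I molecule, read 13.69, 13.86 and 13.94 in nondiabetic mice and 14.97, 14.88 and 14.61 in diabetic mice (0.99 ± 0.16, limma adjusted p = 0.00512). Its partner B2m (0.97) and the immunoproteasome subunits Psmb8 (0.81) and Psmb10 (0.65) rose, whereas the class II genes H2-Aa (0.39) and Cd74 (0.30) did not pass. Class I genes are near copies of one another, and reads may be shared among them. The count was 6 without diabetic mouse 1, 7 without nondiabetic mouse 1 or 2, 9 without nondiabetic mouse 3, and 0 with either tubule covariate (medians 0.35 and 0.40).

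Adhesion genes, which govern how leukocytes dock on endothelium, and part of the NF-kB pathway were called higher. Of 22 leukocyte adhesion genes 13 rose and none fell (median 0.56). Sele, encoding E-selectin of activated endothelium, read 7.75, 7.05 and 8.04 in nondiabetic mice and 9.31, 8.60 and 9.11 in diabetic mice (1.39 ± 0.34, limma adjusted p = 0.0191). Icam1, which binds leukocyte integrins, read 9.68, 9.63 and 10.13 against 10.82, 10.44 and 10.45 (0.75, limma adjusted p = 0.0214), and no values overlapped for either gene. The integrin alpha L gene Itgal rose by 1.01, whereas Vcam1 overlapped between groups (−0.27, limma adjusted p = 0.472). Of 33 NF-kB pathway genes 12 were higher and 1 lower (median 0.24), while 20 were not called. Those higher include the subunits Rela (0.33) and Relb (0.62), whereas the feedback inhibitors Nfkbia (0.42, limma adjusted p = 0.14) and Tnfaip3 (0.14) did not pass. Of 26 chemokines and cytokines 5 were higher, among them the interferon-inducible Cxcl10 (1.23), the B cell attractant Cxcl13 (0.88) and fractalkine, Cx3cl1 (0.68), and the alarmin Il33 fell by 1.10. Of 26 complement genes 3 were higher (11.5%), near the share of all genes, and C3 (−0.03), its central component, overlapped between groups. Without nondiabetic mouse 2 the adhesion count was 3 and the NF-kB count 4, and without diabetic mouse 1 they were 4 and 5. Both were 0 with the proximal tubule covariate, and with the 3 tubule lists they were 1 and 4. The adhesion count was 7 and the complement count 1 without nondiabetic mouse 1, the complement count was also 1 without nondiabetic mouse 2 or diabetic mouse 1, and the chemokine count was 3 without nondiabetic mouse 2.

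Transforming growth factor beta and several basement membrane chains rose, whereas the main fibrillar collagens did not pass. Tgfb1, the central profibrotic cytokine, read 10.59, 10.29 and 10.56 in nondiabetic mice and 11.28, 11.23 and 11.28 in diabetic mice (0.78 ± 0.11, limma adjusted p = 0.00282). Of 48 TGF-beta and BMP genes 10 were higher and 3 lower (median 0.12), with its matrix target Tgfbi 0.62 and the ligand Bmp6 0.56 higher and the receptor Tgfbr1 lower (−0.54), while the target Ctgf (0.72) did not pass. Of 34 basement membrane genes 10 were higher and 3 lower. The collagen IV chains of the capillary and mesangial matrix, Col4a1 (0.56) and Col4a2 (0.76), and the laminin chains Lamc1 (0.61) and Lama4 (0.65) rose, whereas the podocyte chain Col4a3 (0.33, limma adjusted p = 0.366) did not pass. Lamc3, a minor laminin chain, read 8.58, 8.57 and 8.77 against 7.65, 7.84 and 7.58 (−0.95 ± 0.11, limma adjusted p = 0.00199), and its groups did not overlap. In the interstitial matrix list 3 of 42 were higher and 6 lower, the fibrillar collagens Col1a1 (0.00) and Col3a1 (−0.03) overlapped between groups, and Col5a2 (−0.89) and elastin, Eln (−0.64), fell. Of 36 proteases and inhibitors 7 were higher and none lower, led by Adamts9 (1.33), the urokinase receptor Plaur (0.93) and Adam12 (0.85). Without nondiabetic mouse 2 the basement membrane and TGF-beta lists had 3 members higher each and the protease list 2, and without diabetic mouse 1 they had 5, 5 and 2. Without nondiabetic mouse 3 the basement membrane count higher was 5 and the TGF-beta count higher 4. The TGF-beta count lower was 1 without nondiabetic mouse 2 or 3 or diabetic mouse 1. The interstitial matrix list had 0 members higher without nondiabetic mouse 2 or diabetic mouse 1 and 1 lower without nondiabetic mouse 3.

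Vasoactive genes were called in both directions. Nos3 itself, the gene disrupted in every mouse here, still gave reads, at 10.94, 10.82 and 11.26 in nondiabetic mice and 11.39, 11.16 and 11.40 in diabetic mice (limma adjusted p = 0.189), with the groups overlapping. Of 36 nitric oxide, kinin and vasoactive genes 8 were higher and 2 lower: the inducible synthase Nos2 (1.10, limma adjusted p = 0.00207), Nostrin (0.88), which binds eNOS, Ddah2 (0.59), which clears a synthase inhibitor, and the vasodilator adrenomedullin, Adm (1.14), with its co-receptor Ramp3 (1.02), rose, and the endothelin Edn3 fell by 0.85. The vasoactive count was 4 without nondiabetic mouse 1 or 2 or diabetic mouse 1. Of 38 angiogenic genes 4 rose (10.5%), close to the share of all genes, including Lrg1 (1.28), a secreted modifier of endothelial TGF-beta signalling, and 3 fell (7.89%), the Tie2 ligand Angpt1 (−1.04), Esm1 (−0.89) and the HGF receptor Met (−1.11). Vegfa (0.13) overlapped between groups, and 1 angiogenic gene was higher without nondiabetic mouse 2 or diabetic mouse 1. In coagulation and fibrinolysis 6 of 26 were higher, among them the thrombin receptors F2rl3 (1.06) and F2r (0.72), and 3 lower, the antiplasmin gene Serpinf2 (−2.35), protein C, Proc (−1.47), and F5 (−0.88). Both coagulation counts were 1 without nondiabetic mouse 1 or 2 or diabetic mouse 1, and the count higher was 2 without diabetic mouse 3 and 3 without nondiabetic mouse 3.

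**Figure D3:**
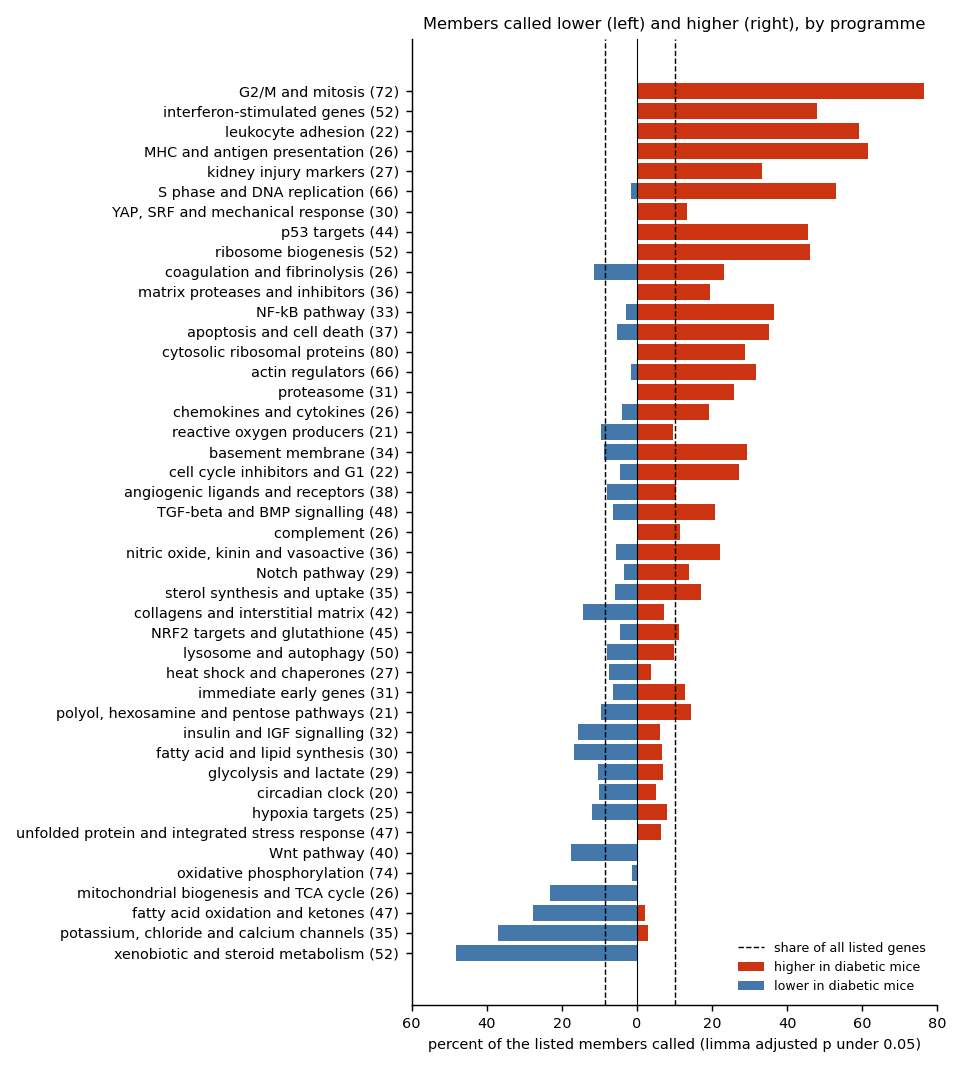
Share of each programme's listed members called lower (blue bars, left) and higher (red bars, right) in diabetic mice, for lists of at least 20 listed genes, whose numbers stand in brackets. The dashed lines mark all genes, 8.63% lower and 10.2% higher, and the G2/M list reaches 76.4% higher while the xenobiotic list reaches 48.1% lower.

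Growth machinery genes mostly had small positive differences, and most of them were not called. All 80 cytosolic ribosomal protein genes had a positive difference (median 0.21, highest 0.39) and 23 were called, for example Rps19 (0.38) and Rpl12 (0.32), while Rpl3 (0.13) and Rplp0 (0.13) did not pass. The call count was 46 without diabetic mouse 3, 6 without diabetic mouse 2, 2 without nondiabetic mouse 1 or 3 and 0 without nondiabetic mouse 2 or diabetic mouse 1, and it was 15 with median-ratio scaling (median 0.19) and 8 with only the vehicle-treated mice in the fit. In ribosome biogenesis 51 of 52 were positive and 24 called (median 0.25), including Rrp9 (0.50), Bop1 (0.43) and Nop56 (0.42), which assemble or process ribosomal RNA, and the count was 10 without nondiabetic mouse 2, 11 without nondiabetic mouse 3 or diabetic mouse 1 and 14 without nondiabetic mouse 1. Of 31 proteasome genes 8 were higher (median 0.19), 0 without nondiabetic mouse 2 or 3 or diabetic mouse 1, 3 without nondiabetic mouse 1, 2 without diabetic mouse 2, 17 without diabetic mouse 3, 4 with median-ratio scaling and 3 with only the vehicle-treated mice in the fit. Of 66 actin regulators 21 were higher and 1 lower (median 0.19), led by Coro1a (1.12), a coronin of leukocytes, and with beta-actin, Actb, at 0.62 and the focal adhesion protein Zyx at 0.71, and Tln2 fell by 0.85. The count was 10 without nondiabetic mouse 2 and 11 without diabetic mouse 1. Mechanical response genes, which answer to YAP and SRF, had 4 of 30 higher (13.3%, median 0.35), near the share of all genes. The actin-linked genes Abra (1.52), Actc1 (0.62) and Cnn2 (0.92) were among them. The defining genes Ankrd1 (0.62), Cyr61 (0.46) and Ctgf (0.72) did not pass. With only the vehicle-treated mice in the fit 10 mechanical response genes were higher, and 0 with the proximal tubule covariate. Of 27 kidney injury genes 9 rose and none fell (median 0.50), including the S100 proteins S100a6 (0.87) and S100a11 (0.50). Havcr1, encoding the tubular injury marker KIM-1, read 6.89, 6.76 and 7.61 in nondiabetic mice and 9.43, 8.87 and 7.52 in diabetic mice, so that diabetic mouse 3 lay among the nondiabetic mice (limma adjusted p = 0.0512). The injury count was 3 without nondiabetic mouse 2 and 4 without diabetic mouse 1, and with the proximal tubule covariate it was 0, with a median of 0.94.

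Lists of xenobiotic metabolism and mitochondrial fuel use held more members lower than higher. Of 52 genes for xenobiotic and steroid metabolism 25 were lower and none higher (median −0.96). Cyp2d12, a cytochrome P450, read 10.27, 10.89 and 9.83 in nondiabetic mice and 6.68, 7.01 and 6.57 in diabetic mice, 11.9-fold lower (−3.58 ± 0.41, limma adjusted p = 0.0018). It belongs to a family of near copies, so its reads may be shared. Hsd3b2, a steroid dehydrogenase, fell (−2.68), as did Cyp2e1, an ethanol-inducible P450 (−2.66). Of 47 genes of fatty acid oxidation 13 were lower and 1 higher (median −0.35): the nuclear receptor Ppara (−1.29), the carnitine transferase Cpt1a (−0.67) and the acyl-CoA dehydrogenase Acadm (−0.52) fell, and the lipid droplet protein Plin2 rose by 0.55. Of 26 genes of the citric acid cycle and mitochondrial biogenesis 6 were lower, with Ppargc1a, the coactivator that drives mitochondrial biogenesis, at 11.57, 11.53 and 11.50 against 10.20, 10.96 and 9.75 (−1.23 ± 0.30, limma adjusted p = 0.0196) and Pcx, the pyruvate carboxylase, at −1.45. None of 74 oxidative phosphorylation genes had a positive difference (median −0.30), but 1 was called, the complex I subunit Ndufs1 (−0.52, limma adjusted p = 0.0481).

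The medians of these 4 lists shrank or changed sign with a tubule covariate. The proximal tubule covariate itself differed between the groups without overlap, so its part cannot be told apart from diabetes. With the proximal tubule covariate the medians were 0.10 for fatty acid oxidation, −0.03 for the citric acid cycle, 0.13 for oxidative phosphorylation and −0.12 for xenobiotic metabolism, and no member was called. With the 3 tubule lists they were 0.19, 0.11, 0.29 and −0.22. There 3 oxidative phosphorylation genes and 1 gene of each other list were called higher, and 1 xenobiotic gene lower. That gene was Cyp2d12 (−2.81), which was at −2.36 and not called with the proximal tubule covariate. Proximal tubule cells express many of these genes strongly, and the part of glomerular cells was not tested. Without diabetic mouse 2 there were 39 oxidative phosphorylation genes and 22 fatty acid oxidation genes lower, and without nondiabetic mouse 2 there were 0 and 2. The fatty acid oxidation count was also 2 without nondiabetic mouse 1 and 4 without diabetic mouse 1 or 3. The citric acid cycle count was 1 without nondiabetic mouse 1 or 2 or diabetic mouse 1 or 3 and 16 without diabetic mouse 2, and the xenobiotic count 15 without nondiabetic mouse 2 and 16 without nondiabetic mouse 1.

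**Figure D4:**
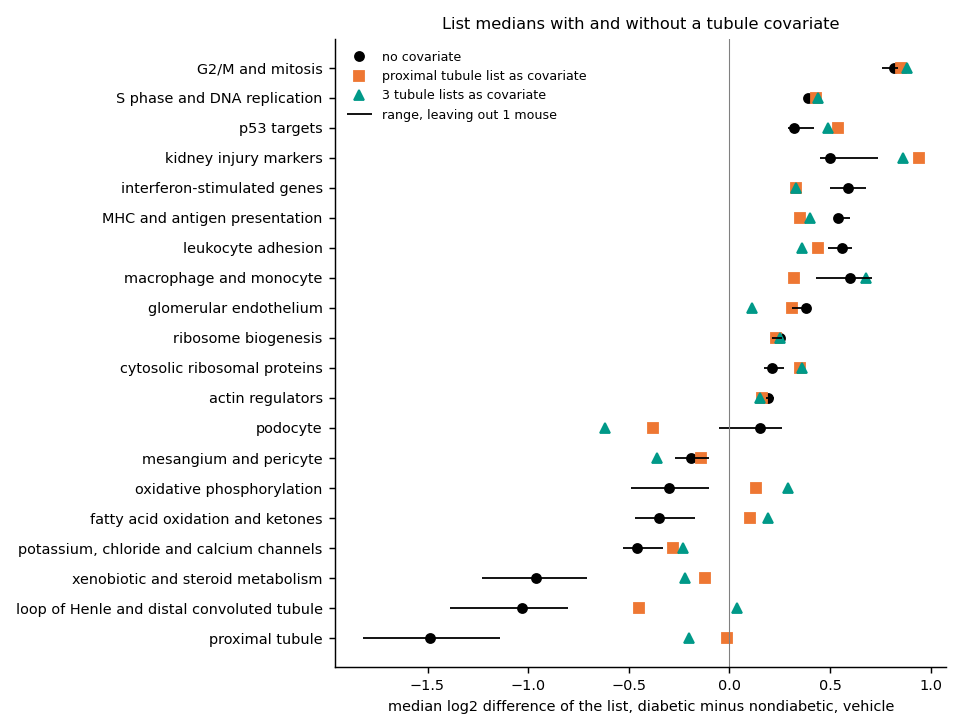
Median log2 difference of 20 lists without a covariate (black circles), with the range over leaving out 1 mouse (black lines), and with the proximal tubule list (orange squares) or the 3 tubule lists (green triangles) as covariate. The G2/M median is 0.82, 0.85 and 0.88, the oxidative phosphorylation median −0.30, 0.13 and 0.29, and the podocyte median 0.15, −0.38 and −0.62.

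Glucose handling and insulin signalling genes changed in single members. Insr, the insulin receptor, read 12.58, 12.55 and 12.65 in nondiabetic mice and 11.90, 12.08 and 12.13 in diabetic mice (−0.56 ± 0.088, limma adjusted p = 0.00445). Igfbp1, a binding protein for insulin-like growth factors, read 7.60, 7.30 and 6.85 against 4.96, 5.49 and 4.86, 4.43-fold lower (limma adjusted p = 0.00199). Both fell without overlap. Igf1r (−0.59) and the growth factor Igf2 (−1.45) were lower as well, the kinase Akt1 was 0.31 higher, and the receptor substrates Irs1 (−0.12) and Irs2 (−0.26) overlapped between groups. In all, 5 of 32 insulin and IGF genes were lower and 2 higher. Of 21 polyol, hexosamine and pentose genes 3 were higher, among them aldose reductase, Akr1b3 (0.31), and 2 lower, among them sorbitol dehydrogenase, Sord (−1.20), which had a difference of 0.02 with the proximal tubule covariate. Of 29 glycolysis and lactate genes 2 were higher, the lactate exporter Slc16a3 (0.71) and Pfkfb3 (0.54), and 3 lower, including Pdk4 (−1.13). Of 16 glucose-responsive MondoA and ChREBP targets 1 was higher, Arrdc4 (0.54), and 2 lower, including G6pc, the last enzyme of glucose release (−2.22), and Txnip (0.13) overlapped between groups. The shares called in the glycolysis list, 6.9% higher and 10.3% lower, were near those of all genes. The polyol and glycolysis lists had 0 members higher without nondiabetic mouse 1 or 2 or diabetic mouse 1, and Akr1b3 kept its call in 6 of 15 alternatives. The glycolysis and glucose-responsive counts lower were 5 each without diabetic mouse 2 and 1 each without nondiabetic mouse 1 or 2. The glucose-responsive count lower was also 4 without nondiabetic mouse 3 and 1 without diabetic mouse 1 or 3.

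Immediate early genes, which respond within minutes to growth factors and to handling of the tissue, were called in shares near those of all genes. Egr1 read 13.65, 12.70 and 12.57 in nondiabetic mice and 11.06, 11.65 and 10.12 in diabetic mice (−2.03 ± 0.59, limma adjusted p = 0.0377). Fos (−1.57, limma adjusted p = 0.107) and Jun (−0.35) did not pass. Of 31 listed genes 4 were higher (12.9%), including Arc (0.96) and Srf (0.70), and 2 lower (6.45%). Of all genes 10.2% were higher and 8.63% lower. The count lower was 0 without nondiabetic mouse 1 or 2 or diabetic mouse 1, the count higher was 2 without nondiabetic mouse 2 or 3 or diabetic mouse 1 or 2 and 7 with only the vehicle-treated mice in the fit, and Egr1 kept its call in 6 of 15 alternatives. Of 35 channel genes 13 were lower and 1 higher (median −0.46), for example the inward rectifiers Kcnj15 (−1.73) and Kcnj2 (−0.83) and the cation channel Trpv4 (−0.65), while Trpc6 (−0.18) overlapped between groups. Of 40 Wnt genes 7 were lower and none higher, including Sfrp1 (−1.41) and the receptors Fzd7 (−0.73) and Fzd6 (−0.34), and of 29 Notch genes 4 were higher (13.8%), near the share of all genes, including Dlk1 (1.60), and Heyl fell by 0.66. The channel count was 5 without nondiabetic mouse 1, 6 without diabetic mouse 1 and 7 without nondiabetic mouse 2, and the Wnt count 2 without nondiabetic mouse 2 or diabetic mouse 1 and 3 without either other nondiabetic mouse. The Notch count higher was 2 without nondiabetic mouse 2 or diabetic mouse 1.

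Among the remaining stress and lipid lists, sterol synthesis had the largest share higher (17.1%) and lipid synthesis the largest share lower (16.7%). Of all genes 10.2% were higher and 8.63% lower. The reactive oxygen (9.52% in each direction), lysosome (10% and 8%) and hypoxia lists (8% and 12%) were near these shares. So was the 11.1% of NRF2 genes called higher. Of 47 genes of the unfolded protein and integrated stress response 3 were higher, Atf4 (0.54), Atf5 (0.59) and Mthfd2 (0.84), and none lower, and the chaperone Hspa5 did not pass (−0.57). None of the 47 was higher without nondiabetic mouse 2, 1 was without nondiabetic mouse 1 or 3 or diabetic mouse 1, and 6 were without diabetic mouse 3, while 3 were lower without diabetic mouse 2 and 1 without nondiabetic mouse 1. Heat shock genes had 1 of 27 higher, Bag3 (0.47), and 2 lower. Of 45 NRF2 and glutathione genes 5 were higher, including Cbr3 (0.66), and 2 lower, Gclc (−0.71) and catalase, Cat (−0.43), while Nqo1 (−0.20) overlapped between groups. Producers of reactive oxygen had 2 of 21 in each direction, with Alox5ap (0.82) rising and the monoamine oxidase Maob (−1.57) falling. Nox4, the main NADPH oxidase of the kidney, did not pass (−1.09, limma adjusted p = 0.0511). The reactive oxygen count higher was 0 without nondiabetic mouse 2 or diabetic mouse 1. In sterol synthesis and uptake 6 of 35 were higher, including Srebf1 (0.30) and the exporter Abcg1 (0.35), and 2 lower, including Abca1 (−0.47). Fatty acid and lipid synthesis had 2 of 30 higher and 5 lower, among them Dgat2 (−1.07) and Gpam (−0.78). Lysosome and autophagy genes had 5 of 50 higher and 4 lower, and hypoxia targets 2 of 25 higher and 3 lower. The hypoxia count higher was 0 without nondiabetic mouse 1 or 2 or diabetic mouse 1. Its count lower was 1 without nondiabetic mouse 1 or 2 or diabetic mouse 1 or 3. Circadian genes had 1 of 20 higher, Cry1 (0.68), and 2 lower, Hlf (−0.91) and Nr1d1 (−0.51). Without nondiabetic mouse 2 the counts higher were 1 each for the NRF2, sterol and lysosome lists, and without diabetic mouse 1 they were 1, 1 and 3. The lipid synthesis count lower was 1 without nondiabetic mouse 2 or diabetic mouse 3, 2 without nondiabetic mouse 1 or diabetic mouse 1 and 9 without diabetic mouse 2. Without diabetic mouse 2 there were also 5 NRF2 and 6 heat shock genes lower, and without nondiabetic mouse 1 there were 5 circadian genes lower. The antioxidant response core (TGACNNNGC) was in the promoters of 29.7% of 37 NRF2 genes against 16.9% of all, and in 0 of the 4 called higher and 0 of the 1 called lower that matched a promoter. Shares with further motifs were 16% of 25 immediate early genes with the cyclic AMP response element (TGACGTCA) against 3.32%, and 28.6% of 14 glucose-responsive genes with the E-box CACGTG against 11.4%.

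Many called genes belong to none of the lists, which together hold 1866 genes and 390 of those higher and 190 of those lower. Among the largest differences was Chrm2, a muscarinic acetylcholine receptor in none of them, at 10.65, 10.56 and 10.15 in nondiabetic mice and 6.83, 8.78 and 6.46 in diabetic mice (−3.10 ± 0.56, limma adjusted p = 0.00707). The organic anion transporter Slco1a1 (−2.91) fell as well, beside the proximal tubule list's Kap (−3.17), an androgen-regulated protein, and Slc7a13 (−2.91), an amino acid transporter. Among the lowest p outside the lists, the tweety family gene Ttyh3 rose by 0.70 (10.78, 10.69 and 10.77 against 11.39, 11.47 and 11.48), and Pank1, which starts coenzyme A synthesis, fell by 0.73 (11.12, 11.13 and 11.11 against 10.30, 10.60 and 10.27). The ubiquitin ligase Marchf8 (−0.40), Syn3 (−1.56), a synapsin, Anxa13 (−1.38), an annexin of epithelium, the transcription factor Sp5 (−1.79) and Parm1 (−1.08) fell too. The largest rises were of the predicted genes Gm17026 (3.01) and Gm5622 (2.83) on chromosome 14, which lie among related copies with about 10 reads in nondiabetic mouse 1, so their values are uncertain.

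The same comparison in the ATG-treated mice gave 3649 genes higher (25.9%) and 2936 lower (20.8%). Of the 1442 genes higher in vehicle-treated mice 1430 had the same sign there and 1209 were called, and of the 1217 lower 1160 had the same sign and 1028 were called, while 14 genes were called with opposite signs. Cdk1 differed by 2.38, Eda2r by 2.53 and Cyp2d12 by −3.15 in ATG-treated mice, and 58 of 72 G2/M genes were higher. The effect of diabetes differed between both treatments for 77 genes (0.546%). In the glomerular cell lists 16 of 39 podocyte genes were higher with ATG and 0 with vehicle, 37 and 17 of 40 endothelial genes, and 22 and 2 of 28 mesangial genes, with mesangial medians of 0.74 and −0.19. In the nondiabetic ATG-treated mice the endothelial means were 11.45, 11.75 and 12.10, below those of every other group. Their podocyte means were 12.67, 13.05 and 13.70, of which the last lay within the 13.64 to 13.89 of the diabetic ATG-treated mice. Their proximal tubule means, 11.84 to 12.42, were above those of every other group. The part of these levels in the counts was not tested. The difference between both effects was itself called for 4 mesangial genes (Pdgfrb, Itga8, Notch3 and Art3), 5 endothelial genes (Sox7, Sox17, Sox18, Hecw2 and Gata5) and 1 podocyte gene (Pla2r1), of which all but Pdgfrb and Itga8 were named after their values were seen. Ribosomal protein genes had medians of 0.09 with ATG and 0.21 with vehicle, and immediate early genes 0.79 and −0.06. The immediate early means were 10.0, 11.47 and 10.81 in nondiabetic and 11.79, 11.46 and 11.28 in diabetic ATG-treated mice, so the groups overlapped. Oxidative phosphorylation had 72 of 74 genes lower with ATG and 1 with vehicle (medians −0.64 and −0.30), beside proximal tubule medians of −1.85 and −1.49.

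**Figure D5:**
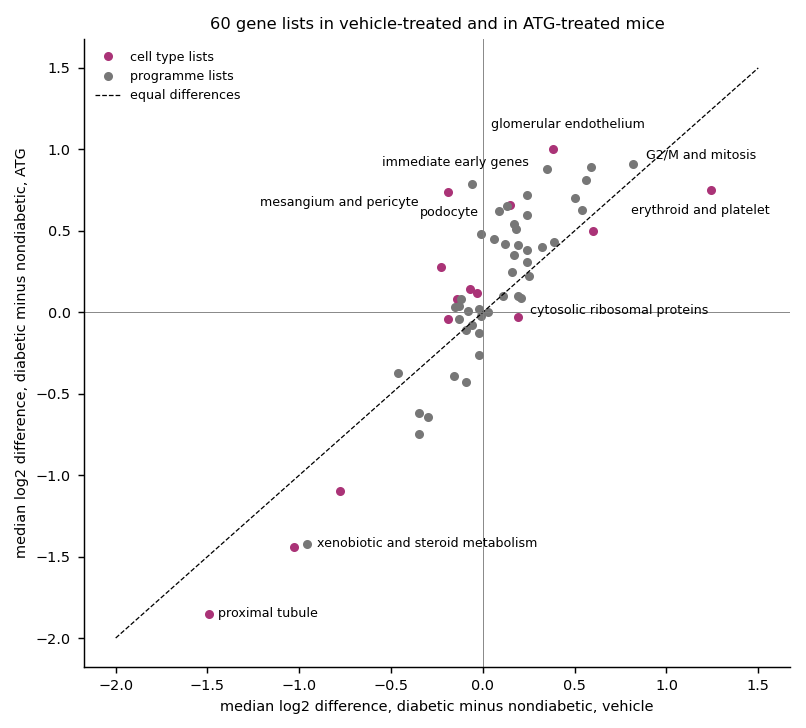
Median log2 difference between diabetic and nondiabetic mice of each of 60 gene lists in vehicle-treated (horizontal) and ATG-treated mice (vertical), which share no mouse. The dashed line marks equal differences: the G2/M list (0.82 and 0.91) lies near it, and the mesangial list (−0.19 and 0.74) and the immediate early list (−0.06 and 0.79) lie above it.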

How the data were processed

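Glomerular mRNA of 12 mice was compared, with the effect of diabetes taken from 3 diabetic and 3 nondiabetic vehicle-treated mice. The deposited files hold, for every mouse, the authors' log2 values of 14096 genes (build mm10). The aligner, counter and normalization are not given in the sources used here, and the submitters' processing notes name limma without a role. On the linear scale at least 83.7% of values under 2000 were whole multiples of 1 step per library within 0.02 reads, so they are reads times 1 factor, and 23.6 to 29.8 M (mega) reads per mouse were recovered. Each listed gene reaches 100 on the linear scale in some library, no mitochondrially encoded gene is listed, and 20 symbols are written as dates. The labels also describe dissociation and sorting of the cells, which the methods for sequencing do not.

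All 12 mice entered a fit of 4 group means with limma 3.58.1 (R 4.3.3) on the deposited log2 values, with a mean-variance trend, contrasts for diabetes in vehicle-treated mice, in ATG-treated mice and for their difference, and Benjamini-Hochberg adjustment over all genes. P-values weigh a difference between group means against the spread between mice within groups. The members, the 60 gene lists and the alternatives were chosen with earlier results of these data known, and no list was tested. Named genes are the 12 with the lowest p and the 8 called genes with the largest difference in each direction and, in each list, the defining genes and up to 4 called genes per direction with the lowest p. Nos3 stands as the deleted gene. A few genes that meet the rule are not reported here.

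Alternatives were median-ratio scaling, a minimum of 10 reads, no trend, vehicle-treated mice only, voom on the recovered reads, a proximal tubule covariate, the number in the labels as a block, leaving out each mouse or the unnumbered mice, a difference of at least 1 and, added after seeing the data, a covariate of 3 tubule lists. The fit was tested on simulated data. Promoters (RefSeq, GRCm38.p6) were matched by gene identifier for 11151 genes, and not all chromosomes were included. Python 3.11.15 (numpy 2.4.6, pandas 2.3.3, matplotlib 3.10.9) was used.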

Additional observations from a re-analysis of the deposited data

Results flagged for a closer look

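The effect of diabetes differed between vehicle- and ATG-treated mice, by limma's test of the difference itself, for 4 of the genes named by the rule. For Itga8, the integrin chain of mesangial cells, it was −0.23 with vehicle (limma adjusted p = 0.322) and 1.11 with ATG (0.000532), a difference of −1.34 (0.0443). For Pdgfrb, the PDGF receptor of mesangial cells and pericytes, it was −0.30 (0.138) and 0.74 (0.00172), a difference of −1.03 (0.0455). For Skil, a repressor of SMAD signalling, it was −0.39 (0.0428) and 0.80 (0.000624), a difference of −1.19 (0.0251). For C1ra, a complement protease, it was 0.25 (0.0493) and 0.86 (9.54e-05), a difference of −0.60 (0.0493). The nondiabetic ATG-treated mice had mesangial list means of 10.25, 10.63 and 10.65, below the 11.05 to 11.50 of all other mice, beside the lower endothelial and higher proximal tubule means given above, and the part of these levels in the differences was not tested.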

How the results depend on the processing

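Beside 1442 genes higher and 1217 lower, the proximal tubule covariate left 12 and 1, the covariate of 3 tubule lists, chosen after seeing the data, 521 and 434, and a difference of at least 1 on the log2 scale 134 and 400. Leaving out 1 mouse gave 475 to 1286 higher and 326 to 1633 lower, and leaving out the unnumbered mice left 744 lower. With the label number as a replicate block 778 and 597 were called, and the count of genes whose effect differed between treatments went from 77 to 8. In the unfolded protein list the block gave 5 members higher and 9 lower, against 3 and 0. Same-numbered vehicle-treated mice deviated from their group means with correlations of −0.025 and −0.257, and the other pairs with −0.279 to 0.304. So few pairs cannot show whether a number stands for a shared batch, and pairs with ATG-treated mice were not compared. The other alternatives kept both counts within 1.5 times. Of 6326 values of named genes under 15 alternatives, 4890 kept direction and call, 1195 lost and 46 gained the call, 180 changed sign in genes called in neither fit, and 15 changed sign in genes called in at least 1. With the 3 tubule lists the last were Acadm (0.02), Atp6v1b2 (0.05), Khk (0.09), Ndrg1 (0.1), Ndufs1 (0.03) and Umod (0.04), and with the proximal tubule covariate Acss2 (0.03), Atp6v1b2 (0.03), Cat (0.02), Khk (0.26), Ldhd (0.08), Ndrg1 (0.19), Proc (0.16), Slc5a2 (0.23) and Sord (0.02). The median standard error was 0.12 without a covariate, 0.19 with the proximal tubule covariate and 0.17 with the 3 lists, and the cause of the changes was not tested. Depth bears on genes with few reads, such as Gm17026 with 10 in nondiabetic mouse 1.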
